A study of Mus musculus with 6 samples.

Results

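The 8 fucosyltransferase genes Fut1, Fut2, Fut4, Fut7, Fut8, Fut9, Fut10 and Fut11 were compared between medullary thymic and thyroid epithelial cells of the mouse. They were taken from the arrays by the gene name printed in the scanner files, which gave 15 of the 41174 probes on the array and 8 of 27597 genes. Thymic cells (3 arrays) came from the thymic medulla and were sorted as Epcam+, CD45-, Fluorogold- and positive for UEA1, the lectin of gorse seeds. Thyroid cells (3 arrays) were sorted as Epcam+, CD45- and Fluorogold-, with no lectin in the gate. Fluorogold is a dye that marks dead cells. All samples were of the C57BL/6 strain, with no genetic or drug treatment in the labels and no age given. Each array pooled animals: 6, 6 and 2 thymi for thymic replicates 1, 2 and 3, and 20 thyroids for each thyroid replicate. The submitters call the replicates independent.

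UEA1 binds fucose attached to galactose by an alpha-1,2 bond, the structure known as the H antigen. Cells make it by charging fucose as GDP-fucose, carrying it into the Golgi, and transferring it to the galactose end of a glycan chain. Fut1 and Fut2 are the members that make this bond, and the mouse has a related gene, Sec1. Fut4, Fut7 and Fut9 attach fucose by an alpha-1,3 bond and make Lewis-type antigens, Fut8 adds the core fucose of N-glycans, and Fut10 and Fut11 belong to the alpha-1,3 family by sequence. The name of lectin-binding enzymes therefore applies by chemistry to Fut1 and Fut2 and not to the other 6. Because UEA1 was part of the thymic gate and absent from the thyroid gate, the organ and the lectin selection cannot be told apart.

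The probes of the alpha-1,2 genes are shown because Fut2 and Sec1 resemble each other where the array reads them. All lie on chromosome 7 within 59.4 kb on the mm8 build that the scanner files use: Fut1 at chr7:45487534-45487593 (plus strand), the first Fut2 probe at chr7:45518618-45518677 (minus strand), and the Sec1 probes at chr7:45546841-45546900 and chr7:45546708-45546767 (minus strand). Capitals mark the longest run of bases that a pair shares. The pair of Fut2 and Sec1 shares 23 bases, and the pair of Fut1 and the second Sec1 probe 9.
Fut2, first probe: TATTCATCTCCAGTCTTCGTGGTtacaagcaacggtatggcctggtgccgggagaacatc
Sec1, first probe: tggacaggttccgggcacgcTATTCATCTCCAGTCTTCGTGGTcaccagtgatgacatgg
Fut1: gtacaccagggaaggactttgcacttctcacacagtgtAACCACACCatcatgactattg
Sec1, second probe: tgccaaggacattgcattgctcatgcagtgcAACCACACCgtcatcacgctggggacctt

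The first Fut2 probe and the first Sec1 probe matched at 33 of 40 overlapping bases (82.5%) without gaps. The Fut1 probe and the second Sec1 probe matched at 39 of 53 (73.6%), although their longest shared run was 9 bases. The second Sec1 probe also shared 16 consecutive bases with a probe of Olfr1383. Of the 15 fucosyltransferase probes, 1 shared 16 or more consecutive bases with a probe of another gene on the array, and that was this Fut2 probe. Fut2 has a second probe at chr7:45517344-45517403 (minus strand), whose longest run shared with a Sec1 probe was 5 bases. The signals of Fut2 and Sec1 at their first probes are therefore uncertain as separate genes. Whether the Fut1 probe and the second Sec1 probe read their genes separately was not tested, and transcripts outside the array were not searched.

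Levels are given as log2 of the scanner software's processed signal minus the 75th percentile of each array, so that 0 is the brightness below which 75% of probes lie. A probe counted as above background when the software flagged it so. Depending on the array, 78.4% to 81.0% of all probes had this flag in thymic cells and 65.4% to 72.8% in thyroid cells, and the 75th percentile stood at signals of 636 to 722 in thymic and 446 to 761 in thyroid cells. A probe was tested if every array of 1 group or of both, 3 arrays each, had it above background, and a gene is represented by its tested probe of highest mean level. Aire, a medullary transcription regulator, had a level of 6.13 ± 0.16 in thymic cells, against -5.95 ± 0.45 in thyroid cells, and Tg, which encodes thyroglobulin, had -1.74 ± 0.09 in thymic cells, against 9.04 ± 0.24 in thyroid cells (SD, n = 3 each). Epcam was 2.36-fold higher in thymic cells. Ptprc, the gene of CD45, was 16.6-fold higher there although both sorts excluded CD45+ cells, and all 8 endothelial markers were higher in thyroid cells. So were 7 of 8 follicular, both parathyroid, 2 of 4 C-cell and 2 of 3 tested red cell markers. The other 2 C-cell markers and 1 of 5 fibroblast markers were higher in thymic cells. Calls are at a limma adjusted p under 0.05, which 31.4% of all probes tested met in the thyroid and 37.3% in the thymic direction. The part of any of these cell types in the differences below was not tested. In such sorted bulk samples, fewer cells of a type and less RNA per cell cannot be told apart.

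Of the 8 fucosyltransferase genes, 4 were higher in thymic cells (Fut1, Fut2, Fut7 and Fut9) and 4 were higher in thyroid cells (Fut4, Fut8, Fut10 and Fut11) at an adjusted p under 0.05. Over all 32347 probes tested, 37.3% passed in the thymic and 31.4% in the thyroid direction, 68.7% in all, and the values of the groups did not overlap for 75.4%. They did not overlap for the representative probe of any of the 8 genes. The 4 genes higher in thymic cells passed the filter on dim probes through the thymic arrays, since none of them was above background on all 3 thyroid arrays. The count therefore depends on which filter is used. It was also 4 with no filter, and it was 0 with a filter on all 6 arrays. The median difference of the 8 genes was 1.02, against 0.06 over all probes tested. This median falls in the gap between Fut8 (-0.93) and Fut2 (2.96), so it describes no gene and no common shift. All p-values are from limma with Benjamini-Hochberg adjustment over all probes tested, and differences are thymic minus thyroid on the log2 scale.

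**Figure D1:**
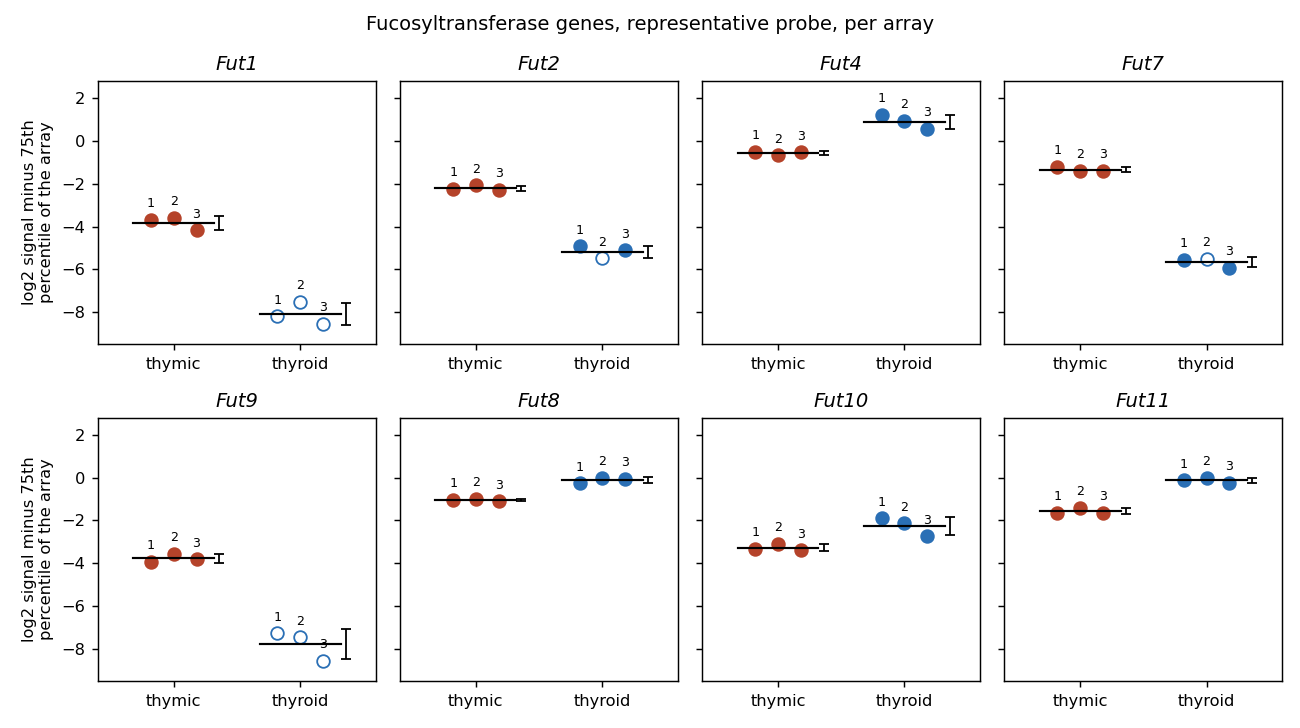
Level of each fucosyltransferase gene on each array, as log2 signal minus the 75th percentile of the array (vertical axis), in thymic (left, red) and thyroid (right, blue) cells. Numbers are replicates, filled points are above background, open points are not, horizontal lines are means and bars are ± SD (n = 3); the groups do not overlap in any of the 8 panels, and open points occur only in the thyroid groups of Fut1, Fut2, Fut7 and Fut9.

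Fut1, which makes the H antigen mainly on type 2 chains, stood at -3.70, -3.59 and -4.18 in thymic cells, against -8.20, -7.53 and -8.53 in thyroid cells. It was above background on all 3 thymic arrays and on no thyroid array, where the software had replaced the signal by a surrogate on all 3. The thyroid values are therefore limits and have no order among themselves. Fut1 in thymic cells exceeded thyroid cells by at least 4.62-fold in the main processing. This bound sets the thymic mean against a floor formed on each thyroid array from the lowest signal above background. The bound itself was not tested, and some probes brighter than that floor lacked the flag. The fitted difference of Fut1, 4.26 (95% interval 3.58 to 4.94; limma adjusted p = 1.64e-05), rests on the surrogates. It became 0.76 with normexp background correction (adjusted p = 0.00339; the alternatives spanned 3.35e-06 to 0.00339). That value lies below the bound, which is 2.21 in log2.

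Fut2, the secretor-type enzyme known from mucosal epithelia, stood at -2.25, -2.08 and -2.30 in thymic cells, against -4.92, -5.48 and -5.12 in thyroid cells, by the first probe. It was above background on all 3 thymic arrays and on thyroid replicates 1 and 3. The fitted difference was 2.96 ± 0.17 (SE; 95% interval 2.56 to 3.37; adjusted p = 7.73e-06), or 7.81-fold, and 1.23 with normexp background correction (adjusted p = 3.29e-05, in a range of 7.44e-07 to 1.96e-04).

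The second Fut2 probe, which does not share the long run with Sec1, stood at -1.66, -1.75 and -1.74 in thymic cells, against -6.52, -7.46 and -7.78 in thyroid cells. It was above background on no thyroid array, and the thymic cells were at least 19.9-fold higher by it. Its fitted difference of 5.54 (limma adjusted p = 7.05e-06) rests on thyroid signals that were not above background. Both probes thus put Fut2 higher in thymic cells. The second gives only a bound, a log2 difference of at least 4.32, which lies above the interval of the first probe, and the difference between the probes was not tested.

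Sec1, no member of the 8 but the third alpha-1,2 gene of the mouse, stood at -2.05, -2.05 and -2.26 in thymic cells, against -5.14, -5.10 and -5.04 in thyroid cells at its first probe. The difference was 2.97 ± 0.11 (SE, adjusted p = 1.55e-06), and 1.35 with normexp background correction. That probe shares the 23 bases with the first Fut2 probe, whose difference was 2.96. The second Sec1 probe, without that run, differed by 2.84 ± 0.26 (SE, adjusted p = 7.00e-05), at -2.94, -2.84 and -2.76 in thymic cells, against -5.94, -6.03 and -5.08 in thyroid cells. Every probe of the 3 alpha-1,2 genes was higher on every thymic array than on any thyroid array. For Fut1 the thyroid values are surrogates. The first probes of Fut2 and Sec1 are uncertain as separate genes, so the 3 genes may not be separate readings.

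Markers of mucosal cell types went in the same direction as these genes, as did other lists. In thymic cells 5 of 6 intestinal secretory markers were higher (summed log2 level 8.55 to 8.58 in thymic, 1.68 to 2.20 in thyroid cells). The thymic sum was mainly Fcgbp (mean level 7.69) and Reg3g (7.28), and the thyroid sum mainly Agr2 (1.74), which did not pass. Higher too were 4 of 5 microfold cell markers (5.90 to 5.94 in thymic, 2.59 to 2.97 in thyroid cells). Their thyroid sum was mainly Tnfaip2 (2.72), which did not pass. All 6 tuft cell markers were also higher (4.88 to 5.10 in thymic, -1.88 to -1.41 in thyroid cells). Over all probes tested, 37.3% passed in the thymic and 31.4% in the thyroid direction. All 4 keratinocyte markers with a probe and all 7 markers of medullary thymic epithelium were higher in thymic cells too, as were the blood cell lists given below. With 2 groups, direction ties no list to Fut1 and Fut2 more than another. The part of any of these cell types in the differences of Fut1 and Fut2 was not tested.

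The genes most like Fut1 and Fut2 over the 6 arrays were taken by the smallest root mean square difference between log2 values centred on each gene's mean, among 16276 named genes. For Fut1 they were Lilra6 (0.115), Atp2a1 (0.119) and Clrn1 (0.120). All 3 were, like Fut1, above background on 3 thymic arrays and on no thyroid array, so that the likeness lies partly in values at the floor. For Fut2 they were Plekha6 (0.0797), above background on all 6 arrays, Rbp2 (0.0871), above background on no thyroid array, and Gzmd (0.123), above background on 2. With 2 groups of 3 arrays, this likeness describes mainly the size of the group difference.

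Fut7, which fucosylates sialylated chains into the selectin ligand sialyl Lewis x and is known from leukocytes, stood at -1.21, -1.40 and -1.39 in thymic cells, against -5.55, -5.50 and -5.92 in thyroid cells. Its probe lies at chr2:25248291-25248350. It was above background on all 3 thymic arrays and on thyroid replicates 1 and 3. The difference was 4.32 ± 0.15 (SE; 95% interval 3.97 to 4.68; adjusted p = 1.07e-06), or 20.0-fold, and 2.03 with normexp background correction (adjusted p = 1.88e-06, in a range of 3.20e-08 to 5.59e-05).

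Markers of blood cells went in the same direction as Fut7, as the mucosal lists above did. The counts stand against 37.3% of all probes tested that passed in the thymic direction. All 7 myeloid and dendritic markers were higher in thymic cells, with a summed log2 level of 6.66 to 6.79 in thymic and 0.75 to 1.55 in thyroid cells. The thymic sum was mainly Lyz2 (mean level 6.68), with Fcer1g next at 1.46, and Cd68 differed by only 1.49-fold. So too were all 7 T-cell markers higher in thymic cells (0.69 to 1.70 in thymic, -0.74 to -0.47 in thyroid cells) and all 5 B-cell markers (2.08 to 2.36 in thymic, 0.46 to 1.37 in thyroid cells). Of 7 neutrophil markers with a probe, all 5 tested were higher in thymic cells (summed 5.58 to 6.07 in thymic, -1.99 to -0.51 in thyroid cells), while Elane and Csf3r were above background on no array. Ptprc stood at -1.03, -1.22 and -0.35 in thymic replicates 1, 2 and 3. The part of blood cells in the difference of Fut7 was not tested.

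Fut9, which makes Lewis x and is known from brain and kidney, was measured by 5 probes on chromosome 4, between 25704676 and 25710519. Its representative probe, at chr4:25709063-25709122, stood at -3.94, -3.57 and -3.82 in thymic cells, against -7.27, -7.46 and -8.56 in thyroid cells. It was above background on every thymic array and on none from thyroid, and thymic cells exceeded thyroid cells by at least 4.77-fold in the main processing. The fitted difference of 3.99 (limma adjusted p = 4.94e-05) became 0.78 with normexp background correction (adjusted p = 0.00209; the alternatives spanned 8.48e-06 to 0.00209). That value lies below the bound, which is 2.26 in log2.

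A second tested probe of Fut9 stood at -5.66, -5.07 and -5.16 in thymic cells, against -8.35, -7.53 and -8.56 in thyroid cells. By this probe the excess in thymic cells was at least 1.66-fold. Its fitted difference of 2.85 (limma adjusted p = 1.44e-04) rests on thyroid signals that were not above background. The other 3 probes did not pass the filter. They were above background on 0, 2 and 2 thymic arrays and on 0, 0 and 1 thyroid arrays, so that the 5 probes of Fut9 did not detect it equally.

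Fut4, the third gene of the alpha-1,3 group and known from myeloid cells, went the other way. It stood at -0.51, -0.66 and -0.53 in thymic cells, against 1.21, 0.94 and 0.55 in thyroid cells, and was above background on all 6 arrays (probe at chr9:14499173-14499232). The difference was -1.47 ± 0.18 (SE; 95% interval -1.90 to -1.04; adjusted p = 3.16e-04), so that Fut4 was 2.77-fold higher in thyroid cells. The myeloid markers above were higher in thymic cells. All 8 endothelial markers were higher in thyroid cells, with a summed log2 level of -0.42 to -0.21 in thymic and 8.32 to 8.87 in thyroid cells. The part of myeloid or endothelial cells in the difference of Fut4 was not tested.

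Fut8, the one enzyme of core fucosylation, was lower in thymic cells by its representative probe, at -1.03, -0.99 and -1.11 in thymic cells, against -0.27, -0.02 and -0.05 in thyroid cells (chr12:78393928-78393987). The difference was -0.93 ± 0.12 (SE; 95% interval -1.21 to -0.65; adjusted p = 3.65e-04). With each array centred on its median it was -1.47 (adjusted p = 2.70e-05; the alternatives spanned 2.67e-05 to 0.00453), where that centring shifted all probes by -0.54. The second probe of Fut8 (chr12:78284066-78284125) did not pass the test, at -0.79, -1.07 and -0.59 in thymic cells, against -0.62, -0.32 and -0.55 in thyroid cells. Its groups overlapped, with a difference of -0.32 (95% interval -0.70 to 0.06; adjusted p = 0.114).

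Fut10, of the alpha-1,3 family, stood at -3.32, -3.09 and -3.40 in thymic cells, against -1.91, -2.14 and -2.75 in thyroid cells (chr8:32727212-32727271). The difference was -1.003 ± 0.23 (SE; 95% interval -1.55 to -0.46; adjusted p = 0.00663), -0.65 with normexp background correction and -1.58 with quantile normalization, at adjusted p between 6.52e-04 and 0.0277 over the alternatives. A second probe, for another transcript record of the gene, differed by -1.28 ± 0.29 (SE, adjusted p = 0.00616). The groups did not overlap at either probe, and thyroid replicate 3 was the lowest thyroid array at both.

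Fut11, the other alpha-1,3 family member beside Fut10, stood at -1.64, -1.40 and -1.64 in thymic cells, against -0.12, 0.01 and -0.23 in thyroid cells (chr14:19484592-19484651). It was 2.72-fold higher in thyroid cells, with a difference of -1.44 ± 0.13 (SE; 95% interval -1.74 to -1.14; adjusted p = 6.00e-05). All 4 genes that were higher in thyroid cells were above background on every array.

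**Figure D2:**
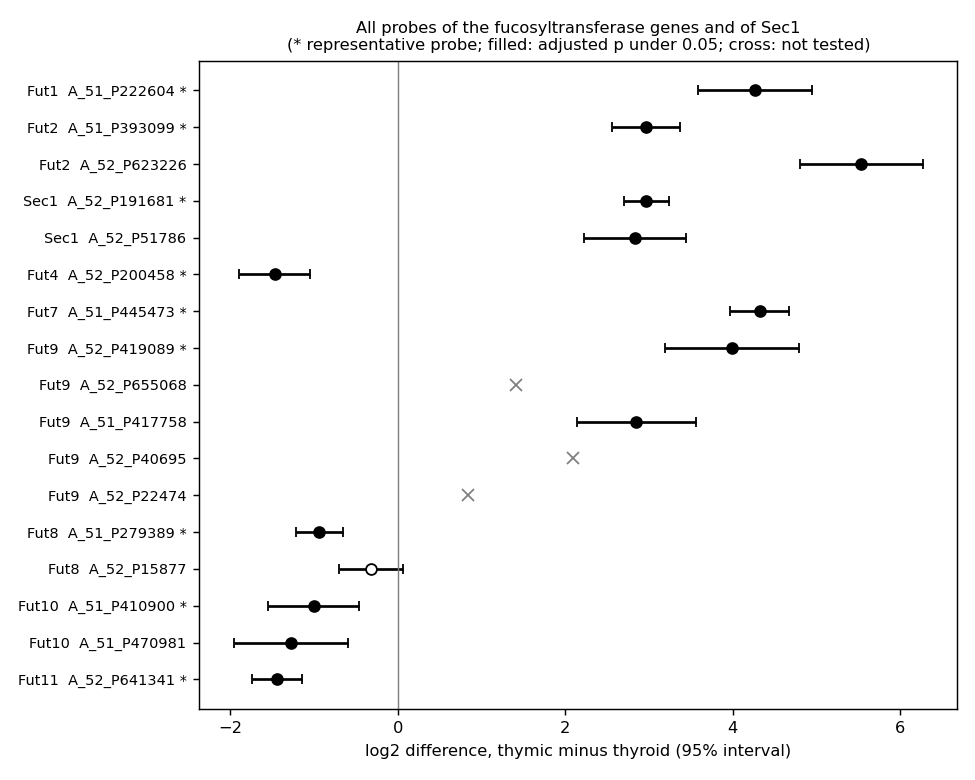
Log2 difference (thymic minus thyroid, horizontal axis) for every probe of the 8 fucosyltransferase genes and of Sec1, with 95% intervals from limma. Filled points passed an adjusted p of 0.05, the open point (second Fut8 probe) did not, and crosses are the 3 untested Fut9 probes; probes of a gene lie on the same side of 0, and the value of the second Fut2 probe, like those of Fut1 and Fut9, rests on thyroid signals that were not above background.

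Thyroid replicates 2 and 3 were on slide 2, and the other 4 arrays shared slide 1. On slide 1 alone, where thyroid cells have 1 array whose spread is taken to equal that of the thymic ones, the differences were 4.38 for Fut1, 2.71 for Fut2, 4.21 for Fut7 and 3.49 for Fut9. They were -1.78 for Fut4, -0.78 for Fut8, -1.36 for Fut10 and -1.43 for Fut11. The slide as a block gives the same values, because slide 2 held no thymic array. All 8 kept their direction and their call in both fits, with the highest adjusted p at 0.00788 for Fut10 with the block.

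The other genes listed handle fucose itself or build, branch, cap or sulfate the chains that carry it. All are called fucosylation genes here, so the total counts are not those of fucose-handling genes alone. Of 65 genes listed, 62 had a probe and 59 were tested. Of these, 16 were higher in thymic cells, 31 higher in thyroid cells, and 12 did not pass. Over all probes tested, 37.3% passed in the thymic and 31.4% in the thyroid direction, and the counts of each list below stand against these shares. The median difference was -0.57, against 0.06 over all probes tested. Median centring gave 15 in the thymic and 43 in the thyroid direction, and the filter on all 6 arrays gave 10 in the thymic and 30 in the thyroid direction.

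The supply of GDP-fucose was not higher in thymic cells for any of its 6 genes: 4 were higher in thyroid cells and 2 did not pass. Gmds, the first enzyme of the route from GDP-mannose, stood at -1.71, -1.69 and -1.60 in thymic cells, against -0.72, -0.38 and -0.32 in thyroid cells (difference -1.19, adjusted p = 2.41e-04). Fcsk, the kinase that salvages free fucose, differed by -0.73 (adjusted p = 0.00205), and Slc35c2, a transporter-family gene, by -0.57 (adjusted p = 0.00170); median centring gave -1.27 for Fcsk and -1.11 for Slc35c2. Slc35c1, the Golgi carrier of GDP-fucose, differed by -0.41 (adjusted p = 0.0179). Its call ended with quantile normalization (-0.17, adjusted p = 0.247), on slide 1 alone (0.0961), with the slide as a block (0.134), without thymic replicate 2 (0.0636) and without thymic replicate 3 (0.0622), while median centring gave -0.95 (2.40e-04, the lowest of its alternatives). Gfus, the second enzyme of that route, had 0.08 ± 0.19 in thymic cells, against 0.29 ± 0.12 in thyroid cells (SD, n = 3 each; limma adjusted p = 0.219), and Fpgt, of the salvage route, differed by -0.26 (adjusted p = 0.122). With median centring both passed, at -0.75 for Gfus (adjusted p = 0.00217, in a range of 0.00217 to 0.695) and -0.80 for Fpgt (adjusted p = 0.00165, in a range of 0.00165 to 0.524), and both also passed with the deposited values. Fpgt further passed with quantile normalization (-0.42, adjusted p = 0.0226), on slide 1 alone (-0.46, adjusted p = 0.0259), with slide as a block (adjusted p = 0.0435) and without thyroid replicate 3 (-0.36, adjusted p = 0.0401).

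Protein O-fucosylation had 0 of 5 tested genes higher in thymic and 3 higher in thyroid cells, and B3glct had no probe. Lfng, which extends the O-fucose of Notch receptors, stood at -3.68, -3.87 and -3.43 in thymic cells, against -0.51, -0.66 and -1.10 in thyroid cells (difference -2.91, adjusted p = 1.65e-05; -1.95 with normexp background correction). Pofut2, which fucosylates thrombospondin repeats, differed by -1.79 (adjusted p = 1.11e-05), and Mfng, a relative of Lfng, by -1.50 (adjusted p = 4.85e-04). Pofut1, which starts O-fucose on Notch, had 1.42 ± 0.14 in thymic cells, against 1.41 ± 0.13 in thyroid cells (SD, n = 3 each; limma adjusted p = 0.951), with a difference of 0.01 that turned to -0.53 once arrays were centred on their medians (adjusted p = 0.00576; the alternatives spanned 0.00576 to 0.961). Rfng, the third gene of that family, had a difference of -0.34 (adjusted p = 0.105), and the alternatives spanned adjusted p of 8.93e-04 to 0.482. It passed with quantile normalization (-1.22, adjusted p = 8.93e-04), median centring (-0.88, adjusted p = 0.00239), the deposited values (-0.87, adjusted p = 0.00246) and without thymic replicate 2 (-0.49, adjusted p = 0.0350).

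Enzymes that build the chains on which Fut1 and Fut2 act went both ways, with 6 of 15 tested genes higher in thymic and 7 in thyroid cells. B3galt5, which makes type 1 chains, had the largest difference in the fucosylation lists. It stood at 2.92, 2.74 and 2.87 in thymic cells, against -5.03, -4.60 and -4.96 in thyroid cells, a 209-fold difference (7.71, adjusted p = 2.21e-07) that was 5.78 on the log2 scale with normexp background correction (adjusted p = 6.59e-10; the alternatives spanned 3.07e-10 to 2.99e-05). It was above background on all 6 arrays. B3gnt4, which extends lactosamine chains, was not above background in thyroid cells and exceeded them in thymic cells by at least 44.1-fold in the main processing. Its fitted difference of 6.21 (limma adjusted p = 7.89e-07) was 2.95 with normexp background correction, below that bound of 5.46 in log2. B4galt4, a galactosyltransferase of type 2 chains, stood at -0.09, -0.07 and -0.04 in thymic cells, against 4.07, 3.93 and 3.64 in thyroid cells, 15.4-fold higher in thyroid cells (adjusted p = 1.15e-06). B3galt1 was 5.20-fold higher in thyroid cells (adjusted p = 0.00471), by a difference of -2.38 that was -0.90 with normexp background correction and -1.55 with the slide as a block, where the call ended (adjusted p = 0.0724; the alternatives spanned 3.92e-04 to 0.0724).

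Genes of core O-glycans were split much as all probes tested were (37.3% thymic, 31.4% thyroid), with 4 of 10 tested higher in thymic and 3 in thyroid cells. Galnt6 (30.3-fold, above background on 2 thyroid arrays) and Galnt12 (3.44-fold), which start mucin-type chains, were higher in thymic cells, while Galnt3 (2.11-fold) and Galnt1 (1.77-fold) were higher in thyroid cells, at adjusted p of 1.05e-04, 2.13e-04, 3.64e-04 and 0.00298. The fitted difference of Galnt6, 4.92, was 2.58 with normexp background correction, 4.10 on slide 1 alone and 4.32 without thyroid replicate 3, and that of Galnt1, -0.83, was -0.52 on slide 1 alone and -1.36 with median centring. Of the genes of N-glycan branching, on which Fut8 acts, 2 of 7 passed in the thymic and 4 in the thyroid direction. Mgat3, which adds the bisecting residue, was at 1.06, 1.36 and 1.00 in thymic cells, against -3.80, -3.64 and -4.20 in thyroid cells (difference 5.02, adjusted p = 1.29e-06; 3.85 with normexp background correction), and Mgat4a was 2.69-fold higher there (adjusted p = 1.24e-04), by a difference of 1.43 that was 0.89 with median centring. Mgat1 (3.88-fold, adjusted p = 1.23e-05) and Mgat2 (2.67-fold, adjusted p = 2.52e-04), the early enzymes of complex chains, were higher in thyroid cells together with Fut8.

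Transferases that cap galactose in competition with fucose or beside it were higher in thyroid cells in 7 of 10 tested genes and in thymic cells in 2. St6gal1, an alpha-2,6 sialyltransferase, stood at -1.76, -2.08 and -1.81 in thymic cells, against 0.74, 0.90 and 0.98 in thyroid cells (-2.75, adjusted p = 4.06e-06; -1.70 as the median over its probes), and St3gal6, an alpha-2,3 sialyltransferase, was 4.02-fold higher in thyroid cells (adjusted p = 2.60e-05). St6gal2 exceeded thyroid cells by at least 8.43-fold in thymic cells in the main processing. Its fitted difference of 3.84 (limma adjusted p = 2.23e-05) was 0.96 with normexp background correction, below that bound of 3.08 in log2. B4galnt2 was not above background in thyroid cells and exceeded them by at least 1.35-fold (fitted difference 1.78, adjusted p = 3.43e-04). That call ended with normexp background correction (0.08, adjusted p = 0.714) and quantile normalization (0.79, adjusted p = 0.1997), where the alternatives spanned 3.47e-04 to 0.714.

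Among the sulfotransferases of selectin ligands, Chst1 was 5.97-fold higher in thymic cells (adjusted p = 2.52e-05), Chst2 passed in the thyroid direction at 2.15-fold (adjusted p = 4.20e-04), and Chst4 differed by -0.11 (adjusted p = 0.538; the alternatives spanned 2.10e-04 to 0.935). Chst4 passed with quantile normalization (-1.30, adjusted p = 2.10e-04), median centring (-0.65, adjusted p = 0.00730) and the deposited values (-0.64, adjusted p = 0.00817). Both fucosidases, the lysosomal Fuca1 and its relative Fuca2, passed in the thyroid direction, with differences of -1.03 (adjusted p = 1.29e-04) and -0.65 (adjusted p = 0.00799), which were -1.57 and -1.19 with median centring. The call of Fuca2 ended on slide 1 alone (-0.39, adjusted p = 0.0680) and likewise with slide as a block (the same difference, adjusted p = 0.0872), where the lowest of its alternatives was 2.37e-04.

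**Figure D3:**
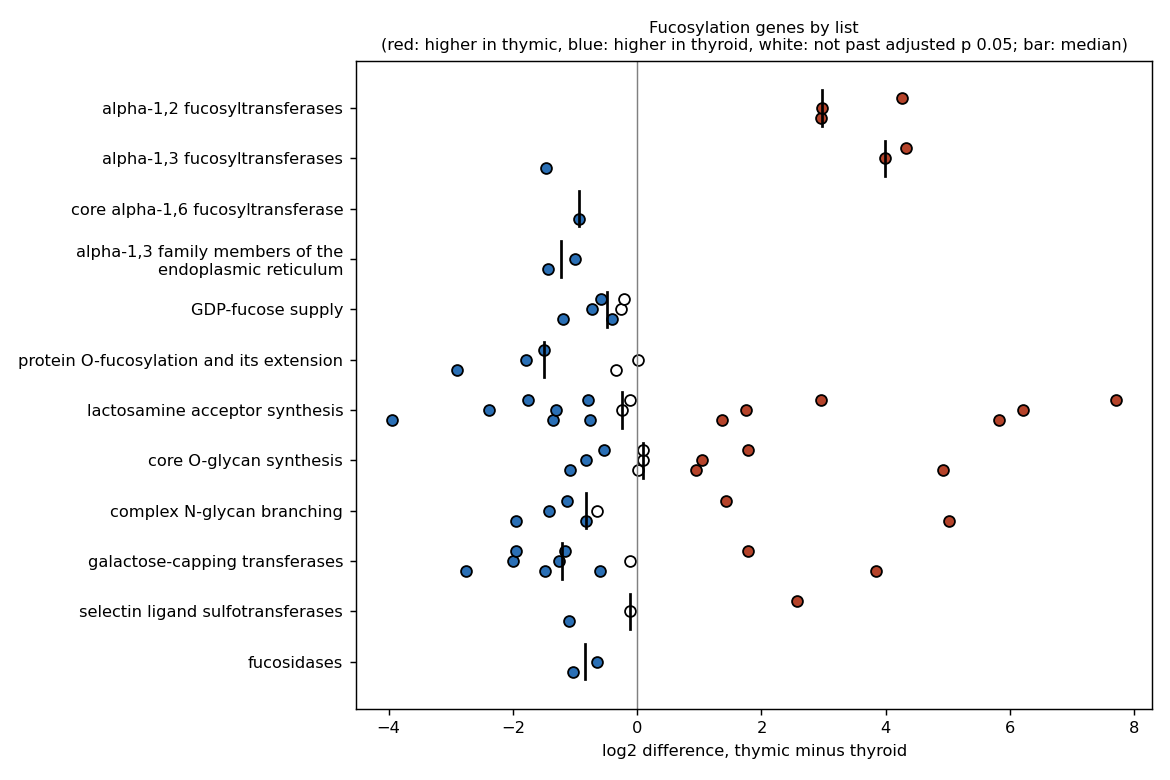
Log2 difference (thymic minus thyroid, horizontal axis) of each tested fucosylation gene, grouped by list. Red and blue points passed an adjusted p of 0.05 in the thymic and thyroid direction, and white points did not. Bars are list medians, and small vertical offsets only separate points. The points of the 3 alpha-1,2 genes lie at 2.96 or higher. That of Fut1 rests on surrogates, and those of Fut2 and Sec1 are uncertain as separate genes. No gene of GDP-fucose supply or O-fucosylation is red.

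The directions of the 8 fucosyltransferase genes held in each alternative that could be fitted, 17 for each of Fut1, Fut2, Fut7 and Fut9 and 18 for each of the others. The filter on all 6 arrays dropped the first 4 of these genes, so it gives no value for them. The sizes of those same 4 depended on how the faint thyroid signals were treated, and the background correction gave the smallest value of each. Quantile normalization gave 2.20 for Fut2, 3.64 for Fut7 and 3.32 for Fut9, and the median over both probes gave 4.25 for Fut2.

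**Figure D4:**
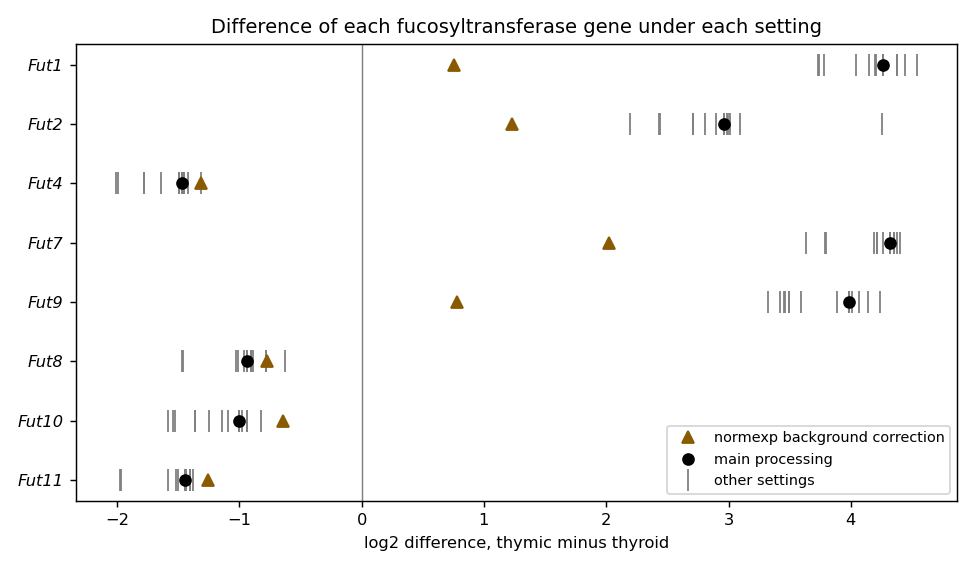
Log2 difference (thymic minus thyroid, horizontal axis) of each fucosyltransferase gene with the main processing (black), with normexp background correction (brown triangles) and under the other settings (grey ticks). Every mark lies on the same side of 0 as its main value; the triangles of Fut1 and Fut9 are at 0.76 and 0.78.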

How the data were processed

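Cy3-labelled RNA was read on 6 single-colour Agilent arrays. Per the file headers, the deposited spot intensity was made with Agilent Feature Extraction 10.5.1.1 (spatial and multiplicative detrending and surrogate values switched on; probes placed on mm8), with above background meaning 13 background SDs. The deposited value table is a linear ratio that equals the processed signal over each array's median, by comparison with the scanner values. Control spots and outlier spots (67 to 151 on an array) were dropped, the log2 values of a probe's spots averaged, and flags taken as set at 50% of spots or more. No probe was saturated.

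Probes were tested with limma 3.58.1 in R 4.3.3 (lmFit, eBayes, two-sided, no covariate) over all 32347 tested probes, after testing on simulated data. Symbols came from a RefSeq table of the GRCm38.p6 assembly (24375 probes by accession, 6301 by symbol, 2426 by older symbol, 8072 kept as in the file). Of 36 fucosylation genes with several tested probes, 1 (C1galt1c1) had called probes of both directions. A lower bound ("at least") sets the brighter mean against the dim group's mean of, per array, the higher of the lowest signal above background and the probe's own. It holds for the main processing only and was not tested. The lowest signal above background is no strict detection limit. On thyroid replicate 1 it was -6.29, and Gfi1b at -6.12 was not above background. Normexp correction gave differences below it, as for Fut1, Fut9, B3gnt4, St6gal2 and B4galnt2. Named were all fucosyltransferase genes, all genes of lists of up to 6 genes and otherwise up to 2 per direction. A summed level is log2 of the sum of a list's scaled signals. The members and lists were chosen with earlier results of these data known. The number of arrays limits precision. Figures used matplotlib 3.10.9.

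Alternatives were normexp correction (offset 50), quantile normalization, median centring, the deposited values, no filter, a filter on all 6 arrays, a weaker detection flag, the median over a gene's probes, slide as a block or slide 1 alone, a replicate block, trended robust variances, and leaving out each replicate.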

Additional observations from a re-analysis of the deposited data

How the results depend on the processing

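All 8 fucosyltransferase genes kept direction and call in every alternative that gave a value. The filter on all 6 arrays left 0 fucosyltransferase genes and 10 other fucosylation genes higher in thymic cells, because it drops probes dim in thyroid cells. It also left 7329 probes higher in thymic cells. Probes higher in thyroid cells numbered 17112 with median centring and 17005 with the deposited values, against 10142. The median over a gene's probes counts genes instead of probes, and gave 8611 genes higher in thymic and 6398 higher in thyroid cells. The share of calls higher in thymic cells was 54.3% in the main processing, 43.0% with quantile normalization, 33.0% with median centring, 33.2% with the deposited values and 42.7% with the filter on all 6 arrays. Without 1 array in turn, 10870 to 12024 probes were higher in thymic and 8732 to 9898 in thyroid cells. Pofut1, uncalled at 0.01, turned to -0.53 with median centring, -0.52 with the deposited values, -0.19 with the median over probes, and -0.0365 to 0.0908 without 1 array in turn (-0.02 without thymic replicate 1, -0.04 without thymic replicate 3, -0.03 without thyroid replicate 1 and -0.03 without thyroid replicate 3). Where no cause is given, it was not tested. Same-numbered replicates did not deviate together (correlations of 0.02, -0.06 and -0.06), so the numbers are not taken as pairs. The replicate block gave 11568 probes in the thymic and 9355 in the thyroid direction, and the call of Slc35c1 ended (adjusted p = 0.0518). Faint signals limit the folds of Fut1, Fut2, Fut7 and Fut9.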
